A study of Mus musculus with 8 samples.

Results

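Transcripts of 10 genes of the cell death machinery, Bcl2, Bcl2l1, Mcl1, Bax, Bak1, Bcl2l11, Bid, Bad, Pmaip1 and Fas, were followed in pancreatic islets of wild type and knock-out mice. Their probe sets were found by the gene symbol of the array annotation, current or older, without the control probe sets of the array maker. This gave 17 of 24965 probe sets, 14 on the array type MG-U74A and 3 on MG-U74B, for 9 of the 10 genes. No probe set was named as Bax, which is not analysed here. Total RNA of islets was hybridised to both types of Affymetrix oligonucleotide array, with 2 arrays per genotype and type, 8 in all, from replicates that the series' design text calls biological. The knock-out mice had 1 gene knocked out, and wild type mice are the only control. Age, strain, sex and the way the islets were picked are not given in the sources used here, nor is whether the knock-out reached tissues other than the islet.

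Members of the Bcl2 family decide whether the outer membrane of the mitochondrion is opened, the step that releases cytochrome c and starts the caspases. Pro-survival members (Bcl2, Bcl2l1, also called Bcl-xL, and Mcl1) hold the effectors Bax and Bak1 in check, and the BH3-only proteins (Bcl2l11, also called Bim, Bid, Bad and Pmaip1, also called Noxa) sense stress and bind the pro-survival proteins or the effectors. Fas is a death receptor of the cell surface that recruits caspase-8, and Bid, when cut by caspase-8, joins that route to the mitochondrion. Both routes have been studied in the loss of beta cells in diabetes, and lymphocytes use the same proteins to end immune responses.

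Intensities are linear, on a scale where an array's trimmed mean is 250.2 (MG-U74A) or 250.1 (MG-U74B), and dim probe sets can be listed below 0. Levels of different probe sets are not compared. The tissue label was checked against its markers on MG-U74A, where Ins2 (insulin) averaged 33860 ± 272 in wild type and 28090 ± 2168 in knock-out (SD, n = 2) and Iapp (islet amyloid) 19969 ± 244 and 14788 ± 985. Other measures moved with the genotype. The 3' to 5' signal ratio of Gapdh, which is higher where RNA is less complete, lay between 3.07 and 3.22 on the 4 wild type arrays and between 0.900 and 0.949 on the 4 knock-out arrays. That of actin differed less, at 1.45 to 1.48 and 1.12 to 1.18. On MG-U74A, 7 of 8 tested lymphocyte markers rose and 0 fell, with a summed intensity of 5187 to 5206 on the wild type arrays and 21941 to 22676 on the knock-out arrays. Among the B cell markers, Cd79a was below 0 on both wild type arrays, but Ighm, Ms4a1 and Cd79b were bright there (means of 2343, 1026 and 481), and Ms4a1 did not pass (1086 in knock-out). All 9 tested macrophage and dendritic cell markers rose (sums of 5385 to 5394 and 18754 to 19133), while Adgre1 and Itgam were too dim to test. Of 8 fibroblast and stellate cell markers 7 rose (5776 to 5804 and 17119 to 18068), and of 6 endothelial markers 5 rose. All 5 tested beta cell markers fell (61006 to 61769 and 41981 to 46602). Slc2a2 went from a mean of 683 to 22.3, Chga from 6087 to 1085 and Pcsk1 from 788 to 307. All 3 alpha, delta and PP cell markers fell (60299 to 60517 and 36614 to 40176). All 4 tested acinar markers fell too (16464 to 16657 and 2322 to 2752). Over all tested probe sets of that array type 23.9% rose and 29.0% fell. On MG-U74B 2 lymphocyte markers could be read, with sums of 176 to 339 in wild type and 519 to 610 in knock-out. There another probe set of Ms4a1 (105471_at) rose, from 203 and 136 in wild type to 477 and 442 in knock-out, and Cd3e did not pass. The part of these shifts in the results below was not tested. In whole islets, fewer cells of a type and less RNA per cell cannot be told apart.

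The plot of intensities on each array shows every member probe set.

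**Figure D1:**
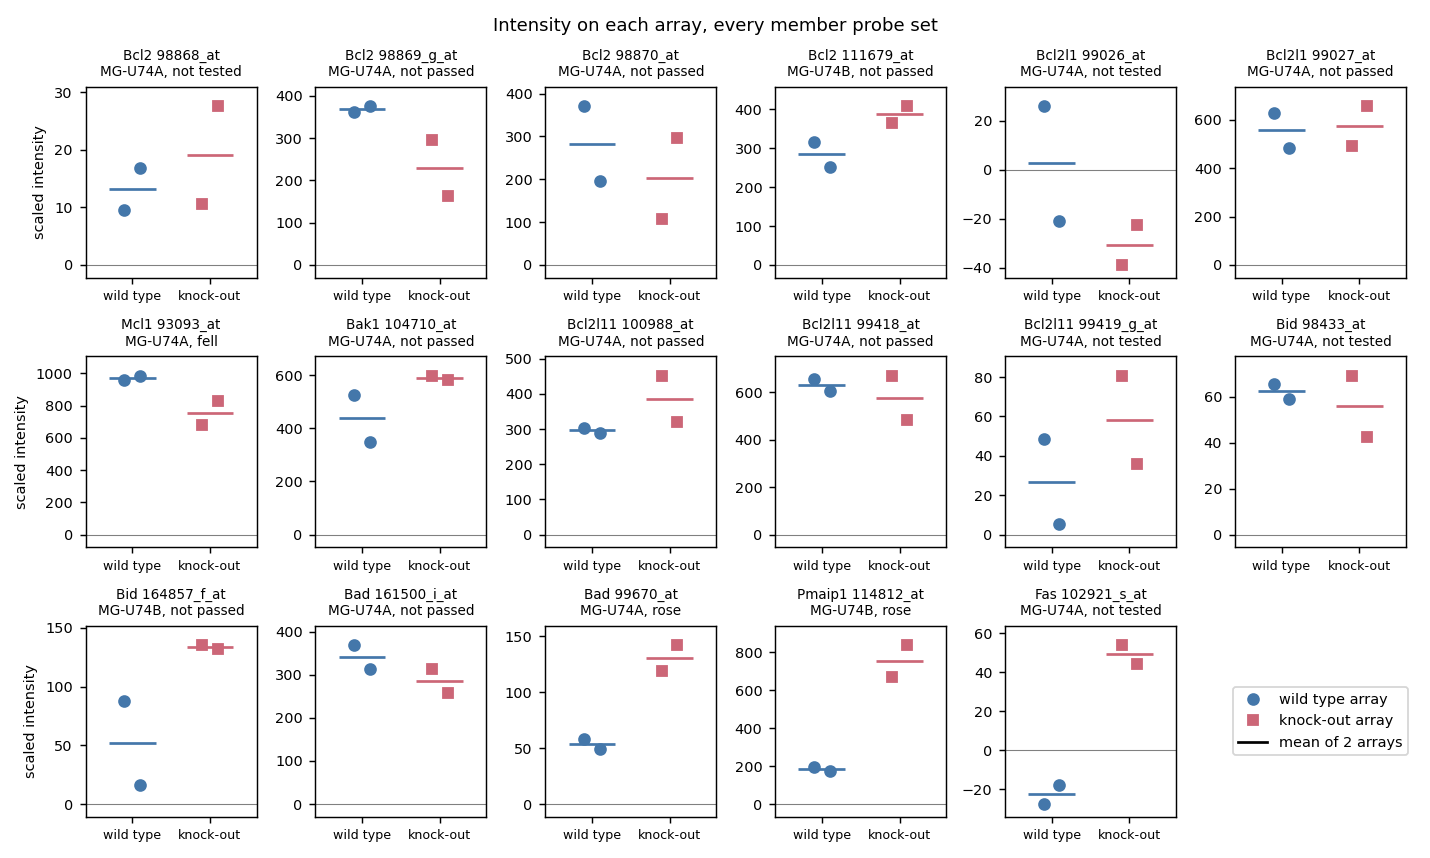
Scaled intensity (linear, own axis in each panel) of the 17 member probe sets on the 2 wild type arrays (circles) and the 2 knock-out arrays (squares), with the mean of each pair as a line and 0 as a grey line. Pmaip1, one Bad probe set and Fas have knock-out arrays well above the wild type pair, while most other panels show pairs that lie close or overlap.

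The genotypes were compared with limma over every probe set of an array type whose 4 arrays averaged at least 62.5, with Benjamini-Hochberg adjustment within the type and a threshold of 0.05. "Rose" and "fell" are used only of probe sets past it. Changes are on the scale of log2 (intensity + 25.02), on which a dim probe set shows less than its ratio of intensities, and are given with their standard error. Of the 17 member probe sets, 12 were bright enough to be tested. On MG-U74A 1 of 9 rose and 1 fell, where 52.9% of all tested probe sets of that array type were called (23.9% up and 29.0% down). On MG-U74B 1 of 3 rose and 0 fell, where 17.5% of all tested probe sets were called (8.59% up and 8.87% down). The members' share of calls on MG-U74A was 22.2%, below that of all tested probe sets, and on MG-U74B it rests on 1 probe set.

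Among the BH3-only genes, Pmaip1 and 1 of 2 Bad probe sets rose, and Bcl2l11 and Bid did not pass. The p53 target Pmaip1, which binds Mcl1, had the largest ratio among the member probe sets with both means above 0. Its single probe set (114812_at, MG-U74B) read 195 and 175 on the wild type arrays and 671 and 838 on the knock-out arrays. Both knock-out values were more than 3 times either wild type value, and the spread within each genotype was small beside that gap. The mean was 185 ± 14.6 in wild type and 754 ± 118 in knock-out (SD, n = 2), a 4.08-fold ratio, and Pmaip1 rose by 1.88 ± 0.21 on the log2 scale (limma, 95% interval 1.34 to 2.43, adjusted p = 0.0102). The call held under every alternative that kept all 4 arrays and ended without any single one. The adjusted p was 0.101 without wild type replicate 1, 0.106 without wild type replicate 2, 0.0543 without knock-out replicate 1 and 0.0558 without knock-out replicate 2, with changes of 1.73 to 2.04. Without either wild type replicate 0 of the 7861 probe sets of MG-U74B passed, and unadjusted p was under 0.05 for 1873 and 1817 of them.

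Bad, a BH3-only protein that is held inactive while growth factor signals keep it phosphorylated, was read by 2 probe sets, of which 1 rose and 1 was lower in knock-out without passing. Probe set 99670_at read 58.5 and 48.8 in wild type and 119 and 142 in knock-out. It rose by 0.98 ± 0.19 (53.7 ± 6.86 to 131 ± 16.3, adjusted p = 0.0152), and since its wild type mean was under the filter, it was tested only through its knock-out values (the stricter filter left it untested). Leaving out wild type replicate 1 (adjusted p = 0.0659) or wild type replicate 2 (0.0906) ended the call. Probe set 161500_i_at, whose suffix marks a set with fewer usable probes than the design called for, read 369 and 314 in wild type and 312 and 257 in knock-out. The knock-out pair lay just below the wild type pair, by 0.24 ± 0.14 (adjusted p = 0.208, 95% interval -0.62 to 0.13). The difference between the probe sets was not tested.

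Bcl2l11 (Bim), a direct activator of the effectors, had 3 probe sets on MG-U74A. Probe set 100988_at read 304 and 288 in wild type and 452 and 321 in knock-out, so the groups did not overlap, at 0.34 ± 0.18 (adjusted p = 0.180, 95% interval -0.15 to 0.83). Probe set 99418_at read 654 and 605 in wild type and 671 and 484 in knock-out, with overlap and a difference of -0.14 ± 0.17 (adjusted p = 0.535, 95% interval -0.60 to 0.33). Both rested on how far apart the knock-out arrays were. The first was at 0.11 without knock-out replicate 1 and at 0.57 without knock-out replicate 2. The second was at -0.36 and 0.088. With 1 knock-out array left, a probe set's own spread comes from the wild type pair alone, so only sizes are given. The third, 99419_g_at, read 48.6 and 5.10 in wild type and 80.8 and 35.8 in knock-out and was too dim to test.

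Bid, the link from death receptors to the mitochondrion, was dim on both array types. On MG-U74A probe set 98433_at read 65.6 and 59.2 in wild type and 69.3 and 42.7 in knock-out, below the filter and with overlap. On MG-U74B probe set 164857_f_at, a suffix given to probes shared by a family of sequences, read 88.0 and 15.9 in wild type and 135 and 132 in knock-out. Both knock-out arrays were higher there, but the wild type pair lay far apart, and the difference of 1.22 ± 0.64 did not pass (adjusted p = 0.242, 95% interval -0.44 to 2.88). Like the rising Bad probe set, it was tested only through its knock-out values.

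Of the 5 tested probe sets of pro-survival genes, 1 fell and 4 did not pass. Mcl1, a short-lived protein that many cells need for survival, read 959 and 986 in wild type and 679 and 829 in knock-out (93093_at, MG-U74A), so both knock-out arrays were lower. Its mean went from 973 ± 19.6 to 754 ± 106 (SD, n = 2), and it fell by 0.36 ± 0.11 on the log2 scale, with an adjusted p of 0.0495 that lies at the threshold (95% interval -0.66 to -0.07). The call ended with the smaller added constant (adjusted p = 0.0516), with no filter (0.148), with quantile normalization (0.0743), with no variance trend (0.0880), without wild type replicate 1 (0.149) and without wild type replicate 2 (0.183). It held without knock-out replicate 1 or 2, where the probe set's own spread came from the wild type pair alone. The changes were -0.50 to -0.22 over the single replicates left out.

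Bcl2, the founding member of the family, had probe sets that differed in direction between the array types. On MG-U74A probe set 98869_g_at read 362 and 376 in wild type and 296 and 164 in knock-out, which were both lower, at -0.68 ± 0.28 (adjusted p = 0.111, 95% interval -1.44 to 0.09). Probe set 98870_at read 371 and 195 in wild type and 108 and 296 in knock-out, which overlap, at -0.51 ± 0.54 (adjusted p = 0.469, 95% interval -1.996 to 0.97). On MG-U74B probe set 111679_at read 317 and 251 in wild type and 365 and 408 in knock-out, which were both higher, at 0.42 ± 0.22 (adjusted p = 0.250, 95% interval -0.16 to 1.00). None of the 3 passed with all arrays. Without knock-out replicate 1 98869_g_at was at -1.06, and without knock-out replicate 2 at -0.29, so its size rested on the knock-out arrays' spread. The dimmest, 98868_at, averaged 16.1 over the 4 arrays and was not tested.

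Bcl2l1 (Bcl-xL), a pro-survival member, showed no difference that these arrays could resolve. Probe set 99027_at read 629 and 482 in wild type and 493 and 657 in knock-out, so the groups overlapped. The means were 556 ± 104 and 575 ± 116 (SD, n = 2), at 0.05 ± 0.20 (adjusted p = 0.859), with a 95% interval of -0.49 to 0.58. Its other probe set, 99026_at, read 26.0 and -20.8 in wild type and -38.9 and -22.7 in knock-out and was not tested.

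Bak1, the effector that sits in the mitochondrial membrane of resting cells, read 528 and 349 in wild type and 599 and 582 in knock-out (104710_at, MG-U74A). Both knock-out arrays were higher than both wild type arrays and lay close together, while the wild type pair did not. The means were 438 ± 127 and 591 ± 12.01 (SD, n = 2), and the difference was 0.44 ± 0.20 (adjusted p = 0.146, 95% interval -0.12 to 1.00). The difference was 0.72 without wild type replicate 1, the replicate nearer to the knock-out arrays, and 0.16 without wild type replicate 2.

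The member probe set of Fas was dim in both genotypes and not tested. A control probe set for Fas, outside the members and not tested either, averaged 84.9 in wild type and 208 in knock-out on MG-U74A. On MG-U74B its means were 190 and 489. The member probe set (102921_s_at, MG-U74A, a suffix for probes shared by similar transcripts) read -27.6 and -17.7 in wild type and 54.0 and 44.3 in knock-out. Wild type was thus listed below 0 on both arrays and knock-out above 0 on both, so no ratio is given. Its mean over the 4 arrays of 13.2 kept it out of the test. With no filter on low values it passed, at 1.56 ± 0.08 (limma, adjusted p = 0.00676), a value in which the wild type pair has no spread because both arrays were set to 0. The lymphocyte and macrophage markers given above rose on the same arrays, and their part in this was not tested.

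**Figure D2:**
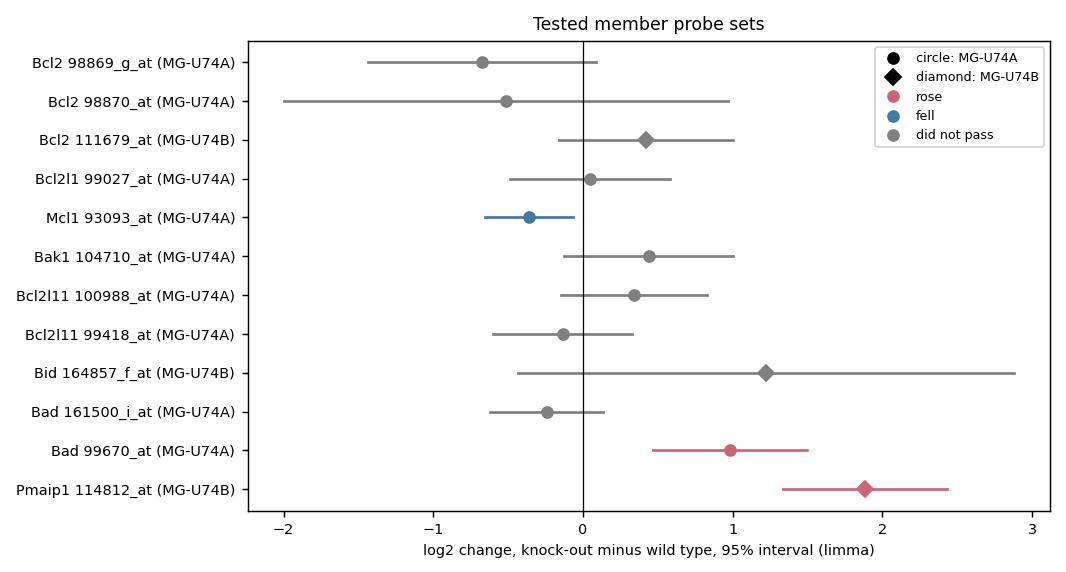
Log2 change (knock-out minus wild type) of the 12 tested member probe sets with the 95% interval from limma, circles for MG-U74A and diamonds for MG-U74B. The intervals of Pmaip1, 1 Bad probe set and Mcl1 leave out 0, and those of the other 9 include it.

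The plot of log2 changes shows how wide the intervals were. With 2 arrays against 2, the full width of a member's interval ran from 0.59 log2 units for Mcl1 to 3.31 for Bid. Over all 17 probe sets, 5 of them not tested, the groups did not overlap for 11, with knock-out higher for 7 and lower for 4. That count joins both array types and has no share over all probe sets beside it, so nothing is read from it. By array type, the groups of tested probe sets compare as follows. Among the 9 tested on MG-U74A they did not overlap for 6, 3 higher and 3 lower, where 79.1% of all tested probe sets of the type did not overlap (35.2% higher and 43.9% lower in knock-out). All 3 on MG-U74B had both knock-out arrays higher, where 65.0% did not overlap in either direction (36.2% higher and 28.8% lower in knock-out). Of the 8 genes with a tested probe set, Bad had 1 that rose and 1 that was lower without passing. Bcl2 and Bcl2l11 each had tested probe sets on either side of 0.

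Around the members, 125 further genes of the cell death machinery were listed by role, of which 106 had a named probe set. On MG-U74A 74 were tested, each by its probe set with the highest mean, of which 25 rose and 23 fell (64.9% called against 52.9% of all tested probe sets). Their median log2 change was 0.01, against -0.09 for all tested probe sets. The 2 shares are not alike, since all tested probe sets include dimmer ones of the same gene. With the stricter filter 45 of 65 list genes and 3548 of 5891 probe sets were called. The difference was not tested. On MG-U74B 5 of 24 rose and 0 fell (20.8% against 17.5%), with a median of 0.40 against 0.11. Of the rises, 4 on MG-U74A (Traf1, Gzma, Casp1 and Pim1) and 2 on MG-U74B (Tnfsf10 and Ripk3) had a wild type mean under the filter, so they were tested only through their knock-out values and could be called in that direction alone. Casp1 is named here after its values were seen. Without wild type replicate 1 or 2 the calls on MG-U74A numbered 28 and 30. On MG-U74B 0 remained past the threshold in limma without any single replicate, where unadjusted p was under 0.05 for 4 to 10 genes.

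Other members of the Bcl2 family and proteins named after it went both ways. On MG-U74A 9 were tested, 1 rose and 3 fell (44.4% called against 52.9% of all tested probe sets), with a median of -0.22. Bcl2l2 (Bcl-w), a pro-survival member, read 504 and 521 in wild type and 189 and 173 in knock-out, a 2.83-fold lower mean, and fell by 1.38 ± 0.08 (adjusted p = 7.42e-04). Bcl2l13 fell by 0.33 ± 0.07 (adjusted p = 0.0212) on MG-U74A, which did not hold when wild type replicate 1 (0.143) or 2 (0.140) was left out, and on MG-U74B it was at -0.39 ± 0.35 (adjusted p = 0.468). Bok, an effector relative of Bax and Bak1, fell by 0.29 ± 0.08 (adjusted p = 0.0467), at the edge of the threshold: the adjusted p was 0.0783 with no filter, 0.0810 with quantile normalization, 0.0639 with no variance trend, 0.167 and 0.229 when wild type replicate 1 or 2 was left out and 0.0668 when knock-out replicate 2 was. Bcl10 rose by 0.70 ± 0.06 (348 ± 11.5 to 582 ± 12.03, adjusted p = 0.00197), but it is an adaptor of NF-κB signalling and not a Bcl2 relative. Bik (-0.22 ± 0.25), Bcl2l10 (-0.32 ± 0.32), Bnip1 (0.10 ± 0.10), Bnip2 (-0.19 ± 0.10) and Bnip3 (0.19 ± 0.16) did not pass. A dimmer probe set of Bnip2, 93064_at, rose by 1.00 ± 0.11. On MG-U74B the BH3-only gene Bmf read 934 and 959 in wild type and 1612 and 1571 in knock-out, and rose by 0.73 ± 0.11 (adjusted p = 0.0163). Its call ended without any single replicate, with adjusted p between 0.0521 and 0.130. Bcl2l14 (0.50 ± 0.59), Bnip1 (-0.16 ± 0.49) and Bnip2 (0.30 ± 0.31) did not pass there. Probe sets shared by the Bcl2a1 genes carry several symbols and were not read.

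Ligands, receptors and their adaptors rose in 6 and fell in 3 of 13 tested genes on MG-U74A (69.2% called, where 23.9% of all tested probe sets rose and 29.0% fell), with a median of 0.45. The signalling adaptors Traf1 and Traf2, which bind receptors of the TNF family, rose by 2.24 ± 0.32 (tested only through its knock-out values) and 1.56 ± 0.09, Traf2 from 197 ± 6.50 to 629 ± 53.8 (SD, n = 2). Cflar (FLIP), which blocks caspase-8 at Fas, rose by 0.86 ± 0.07 (270.0 ± 9.97 to 512 ± 13.8, adjusted p = 0.00158). Dap (a death-associated protein), Faf1, a protein that binds Fas, and the TNF receptor Tnfrsf1a fell by 2.22 ± 0.09, 0.88 ± 0.09 and 0.52 ± 0.04. On MG-U74B 3 of 7 rose and 0 fell, where 8.59% of all tested probe sets rose and 8.87% fell. Tnfsf10 (TRAIL), a death ligand, read 3.80 and -14.5 in wild type and 265 and 191 in knock-out (3.22 ± 0.51, adjusted p = 0.0206), and Ripk3, the kinase of necroptosis, read 22.1 and 89.1 in wild type and 517 and 788 in knock-out (3.18 ± 0.53, adjusted p = 0.0223). Both were tested only through their knock-out values. Both calls ended without any single replicate, with changes of 3.01 to 3.43 for Tnfsf10 and 2.54 to 3.82 for Ripk3. Each also ended under an alternative that kept all 4 arrays (limma, adjusted p up to 0.0564 and 0.109). Faf1, which fell on MG-U74A, rose by 1.70 ± 0.27 on MG-U74B (adjusted p = 0.0203), so its array types disagree. That value lies outside the rule for named genes and was singled out after it was seen.

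Caspases, the apoptosome and granzymes had 8 rises and 0 falls among 15 tested genes on MG-U74A, with a median of 0.27. The share called, 53.3%, was near the 52.9% of all tested probe sets (23.9% up and 29.0% down), and 2 of the 8 rises, Gzma and Casp1, were tested only through their knock-out values. Gzmb and Gzma, granzymes of cytotoxic lymphocytes, rose by 1.88 ± 0.10 and 2.05 ± 0.33, Gzmb from 154 and 137 in wild type to 581 and 628 in knock-out. Prf1 (perforin), of the same role, read 118 and 30.0 in wild type and 31.8 and 115 in knock-out, and did not pass. Prf1 is named here after its values were seen. The call for Gzma ended without knock-out replicate 2 (adjusted p = 0.0559). Casp4, an inflammatory caspase, rose by 1.35 ± 0.32 (adjusted p = 0.0270), which did not hold when knock-out replicate 1 (0.117) or 2 (0.114) was left out. Without single replicates 5 or 6 of the 15 rose and 0 fell. With no filter on low values 4 of 24 rose, where 1730 of 12422 probe sets of the array type rose. Lymphocyte and macrophage markers rose on the same arrays, and their part in these counts was not tested. On MG-U74B 1 gene of this role was tested, Casp1, by probe set 164488_i_at. It read 151 and 175 in wild type and 189 and 132 in knock-out, with overlap, and did not pass.

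Caspase inhibitors and survival kinases split evenly on MG-U74A, with 5 rises and 5 falls in 10 tested genes, where 52.9% of all tested probe sets were called. Pim1, a kinase that phosphorylates Bad, read 2.80 and 35.0 in wild type and 908 and 1108 in knock-out, through which alone it was tested, while its relative Pim2 fell by 1.07 ± 0.22. Birc3 (an inhibitor of apoptosis protein) and Tnfaip3 (A20) rose by 1.12 ± 0.14 and 1.01 ± 0.19, and Birc6 and Bag1, a partner of Bcl2, fell by 0.90 ± 0.10 and 0.72 ± 0.13. Without wild type replicate 1 or 2 the calls for Pim2 (adjusted p up to 0.0914) and Tnfaip3 (up to 0.0764) ended, and without knock-out replicate 1 or 2 that for Bag1 (up to 0.0687). Without wild type replicate 1 or 2, 3 rose and 3 fell of the 10. On MG-U74B 0 of 5 passed in limma (1 at an unadjusted p under 0.05), where 17.5% of all tested probe sets were called.

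Of 27 tested regulators upstream of the family on MG-U74A, 12 fell and 5 rose, with a median of -0.29, where 29.0% of all tested probe sets fell and 23.9% rose. The difference from the other probe sets was not tested. Pdcd4 fell by 1.49 ± 0.11 (856 ± 112 to 287 ± 18.3), and the stress genes Ddit3 (CHOP, an inducer of Bim) and Gadd45g fell by 1.46 ± 0.18 and 1.32 ± 0.09. Nfkbia, the inhibitor and target of NF-κB, rose by 1.24 ± 0.05 (711 ± 29.3 to 1707 ± 26.3, SD, n = 2), Gadd45b by 0.91 ± 0.07 and Myc by 0.69 ± 0.16, where the call for Myc ended without wild type replicate 1 or 2 (adjusted p up to 0.117). Without wild type replicate 1 or 2 the counts were 7 falls and 2 rises each. On MG-U74B 1 of 6 rose, where 8.59% of all tested probe sets rose. This was Ywhaq (164627_r_at), a 14-3-3 protein of the kind that holds Bad in the cytosol, at 0.70 ± 0.16 (limma, adjusted p = 0.0457). On MG-U74A 3 Ywhaq probe sets fell, the one with the highest mean by 0.68 ± 0.03, so the array types disagree here as well, and the call on MG-U74B ended without any single replicate (adjusted p from 0.0663 to 0.215).

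**Figure D3:**
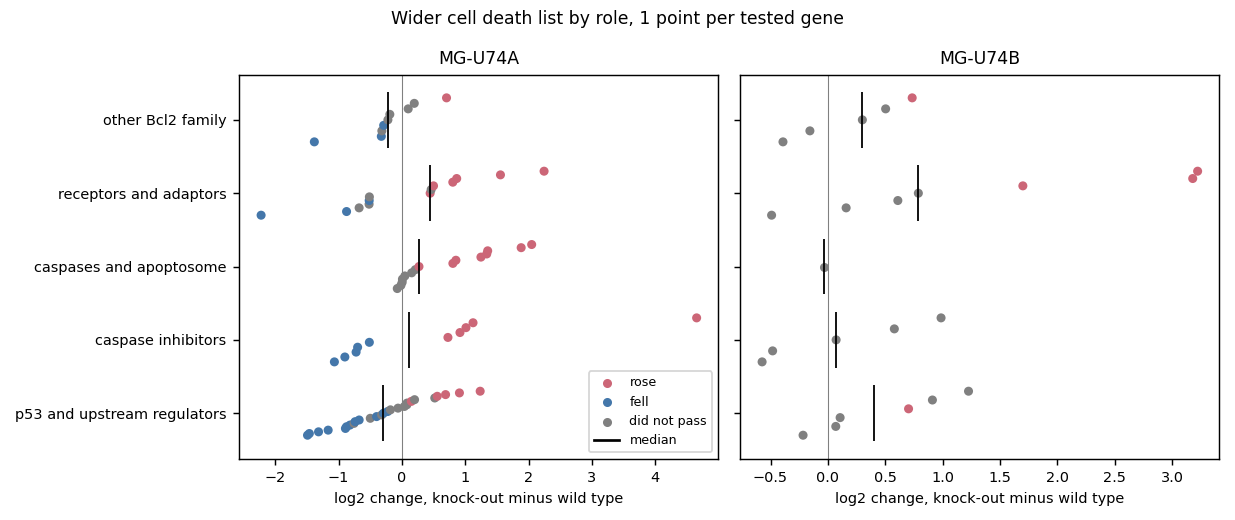
Log2 change (knock-out minus wild type) of each tested gene of the wider cell death list, by role, on MG-U74A (left) and MG-U74B (right), with calls in colour and the median as a black line. On MG-U74A the caspase and apoptosome genes have 8 rises and 0 falls, and upstream regulators have 12 falls and 5 rises, where 29.0% of all tested probe sets fell and 23.9% rose.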

How the data were processed

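Total RNA of islets was hybridised to MG-U74A and MG-U74B arrays, 4 of each. The authors deposited 1 linear intensity per probe set and array. The values show a common scale (a like mean after the 2% at each end are left out), and the sources used here name no software. From 18.4% to 26.7% of an array's values are negative. Each array was multiplied by 1 factor to the mean of its type, values below 0 were set to 0, 25.02 (10% of the trimmed mean) was added and log2 was taken. Probe sets with a mean under 62.5 (25%) and 66 control probe sets of each type were not tested, which left 7516 and 7861. Each array type was fitted separately with lmFit and eBayes (trend) of limma 3.58.1 in R 4.3.3, two-sided, after a test on simulated data. An exact permutation test of 2 against 2 arrays cannot give a p under 0.333, so p-values rest on the spread that limma pools over probe sets. These p-values carry the spread of the arrays in hand alone, part of which may be technical. Single replicates were left out in turn with the same tested probe sets, where the lone array is assumed to vary like the others. For arrays, their number limits the precision.

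Gene names come from the platform annotation, updated through gene identifiers of GRCm38.p6 (10855 and 10603 with 1 symbol, 396 and 178 with several, 1237 and 1696 with none). Members and lists were chosen with earlier results of these data known. All member probe sets and all tested other Bcl2 family genes are named, and in each other role up to 3 rises and 3 falls on MG-U74A and 2 and 2 on MG-U74B, largest first, past the threshold with no overlap of arrays. Same-numbered arrays of the genotypes did not deviate together (correlation across probe sets 0.02 and 0.03), and the labels do not say that a number pairs them, so no block was used. The knocked-out gene is not reported here.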

Additional observations from a re-analysis of the deposited data

Results flagged for a closer look

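A control probe set for mouse Fas, which the array maker placed on both array types and which is not among the members, was brighter in knock-out. On MG-U74A it read 83.5 and 86.3 in wild type and 175 and 241 in knock-out, with a knock-out mean of 208 against 84.9, a 2.45-fold ratio. On MG-U74B it read 213 and 166 in wild type and 502 and 475 in knock-out, with a mean of 489 against 190, a 2.58-fold ratio. The knock-out arrays lay above the wild type arrays on both types, in the direction of the member probe set of Fas. Control probe sets were left out of the fit, so this was not tested.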

How the results depend on the processing

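The alternatives were a smaller and a larger added constant, no and a stricter filter, quantile normalization, no variance trend, a replicate block, the probe set with the lowest adjusted p for list genes, and each replicate left out. On MG-U74A 3974 probe sets were called and 2264 to 4097 with single replicates left out. Without wild type replicate 1 or 2, 52.1% and 52.2% of the calls were rises, against 45.2%. On MG-U74B 1372 were called, 764 without the filter, 638 when the variance trend was dropped and 0 to 538 with single replicates left out (1817 to 2739 at an unadjusted p under 0.05, limma). Of the members on MG-U74A 2 were called, and 1 with the smaller constant, the stricter filter, quantile normalization or no variance trend. Leaving out single replicates gave 0 to 4 (1 to 4 unadjusted). On MG-U74B it gave 0 of 3 members each time (1 to 2 unadjusted). The wider list had 48 calls on MG-U74A, 28 to 48 with single replicates left out. On MG-U74B it had 5, then 1 without the filter, 1 when the variance trend was dropped and 0 with any replicate left out (4 to 10 unadjusted). The causes of these shifts were not tested.

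No called value changed sign. Among values that had not passed, leaving out single replicates turned the sign of Bcl2 98870_at (-1.15 to 0.12), Bcl2l1 99027_at (-0.15 to 0.24, and -0.14 without wild type replicate 2), Bcl2l11 99418_at (-0.36 to 0.088), Bcl2l10 (-0.70 to 0.066), Bik (-0.54 to 0.10), Bcl2l14 (-0.074 to 1.08) and, on MG-U74B, Bnip1 (-0.50 to 0.19). Same-numbered arrays share only a number. With the replicate block 3628 and 1207 probe sets, 2 and 1 members and 42 and 4 list genes were called on MG-U74A and MG-U74B. It ended the calls of Bcl2l13 (adjusted p = 0.0571), Bok (0.0909) and, on MG-U74B, Ywhaq (0.0632), and of no other named gene or member. Of the named list genes' calls, 8 of 25 on MG-U74A and 4 of 4 on MG-U74B ended under some alternative with all 4 arrays. The adjusted p (limma) reached 0.103 for Casp4, 0.0832 for Pim2, 0.0658 for Myc, 0.0574 for Bag1, 0.0537 for Tnfaip3 and 0.0506 for Gzma. Signal near or below 0 limits Fas, Bid and the dim probe sets of Bcl2, Bcl2l1 and Bcl2l11.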
